A study of Mus musculus with 32 samples.

Results

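The Cyp2c family is the mouse cytochrome P450 subfamily that oxidizes drugs, steroids and polyunsaturated fatty acids in the liver. The members described here are the 10 genes Cyp2c29, Cyp2c37, Cyp2c38, Cyp2c39, Cyp2c40, Cyp2c50, Cyp2c54, Cyp2c55, Cyp2c67 and Cyp2c68, chosen by gene symbol from a list made with earlier results of these data known. All 10 of 10 were found in both count tables, the 1 of females and the 1 of males, which list 41585 genes and 16 Cyp2c symbols in all. The other 6 symbols (Cyp2c44, Cyp2c53-ps, Cyp2c65, Cyp2c66, Cyp2c69 and Cyp2c70) are not in that list and are given as relatives. RNA-seq was performed on livers of wildtype (WT) mice and mice that lack Cyp2b9, Cyp2b10 and Cyp2b13 (Cyp2b-null), fed a normal chow diet (ND) or CDAHFD, a high fat diet without choline in which protein is replaced by L-amino acids and which causes fatty liver disease. CDAHFD is also low in methionine. Feeding began at 10 weeks of age and lasted 8 weeks, and each of the 8 groups of diet, genotype and sex had 4 libraries, 32 in all. All mice were C57BL/6 by the labels, and the study's methods name the background of the Cyp2b-null line as C57Bl/6J. The deletion was made with CRISPR/Cas9 and is carried in every tissue, and the WT mice were purchased, so that source and genotype cannot be told apart. Each library is taken as 1 mouse. The sources used here say nothing of pooling, and the p-values measure the spread between these libraries.

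As background, CYP2C enzymes sit in the endoplasmic reticulum and take electrons from cytochrome P450 reductase and cytochrome b5. Several of them add oxygen across a double bond of arachidonic or linoleic acid, and the resulting epoxides are signaling lipids that epoxide hydrolases break down. In mouse liver, part of the family is set by the sex-dependent pattern of growth hormone release through STAT5, and part responds to the receptors CAR and PXR and to the hepatocyte factors HNF4α and C/EBPα.

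Total counts on genes were 2906411 to 6873396 per library in females and 4483301 to 10166959 in males. Expression levels are counts scaled to a common library size (CPM) with TMM factors over all 32 libraries. Changes are on the log2 scale, each with its standard error (SE), and edgeR's quasi-likelihood test was used. A gene was called at a Benjamini-Hochberg adjusted p-value under 0.05 over all genes tested, which were 13226 in females, 13460 in males and 14020 in the fit of both sexes. All 10 members passed the filter on low counts in each fit. A count of 3, taken as the floor of detection, was 0.295 CPM in the deepest and 1.03 CPM in the shallowest library, and it covers counting error only. Cyp2b9, Cyp2b10 and Cyp2b13 had at most 18 counts in any Cyp2b-null library, while WT females had at least 683 counts of Cyp2b9. In ND-fed males Cyp2b9 was as low in WT mice (0 to 15 counts), and there the genotypes were separated by Cyp2b10 (33 to 97 against 1 to 9 counts). Females and males come from separate tables, so sex and table cannot be told apart. Livers were bulk tissue, in which fewer cells of a type and less RNA per cell cannot be told apart.

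The members lie together on chromosome 19 between 39007019 and 40113950 (GRCm38), a stretch of 1106932 bases, with 5 members on each strand and 9 exons in each. Cyp2c69 lies inside the stretch and is not among the members, and its coding sequence is 97.9% identical to that of Cyp2c40. Cyp2c40 and Cyp2c68 share 98.1% of their coding bases, Cyp2c40 and Cyp2c67 97.69%, and Cyp2c67 and Cyp2c68 97.15%. A further close group is Cyp2c37, Cyp2c50 and Cyp2c54 (95.1% to 96.12%), and Cyp2c38 and Cyp2c39 share 94.22%. No other Cyp2c gene reached 90% coding identity to Cyp2c29 or Cyp2c55. Of all stretches of 150 bases in the Cyp2c40 transcript, 29.14% occur unchanged in another Cyp2c transcript, against 13.01% for Cyp2c67, 8.825% for Cyp2c68, 3.247% for Cyp2c50, 2.993% for Cyp2c54, 0.2985% for Cyp2c37 and 0% for the other members. Among the relatives it was 22.51% for Cyp2c69, 5.469% for Cyp2c66, 4.553% for Cyp2c65 and 0% for Cyp2c44 and Cyp2c70. How reads that fit more than 1 gene were counted is not given in the sources used here, so the split of counts within a close group is uncertain.

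**Figure D1:**
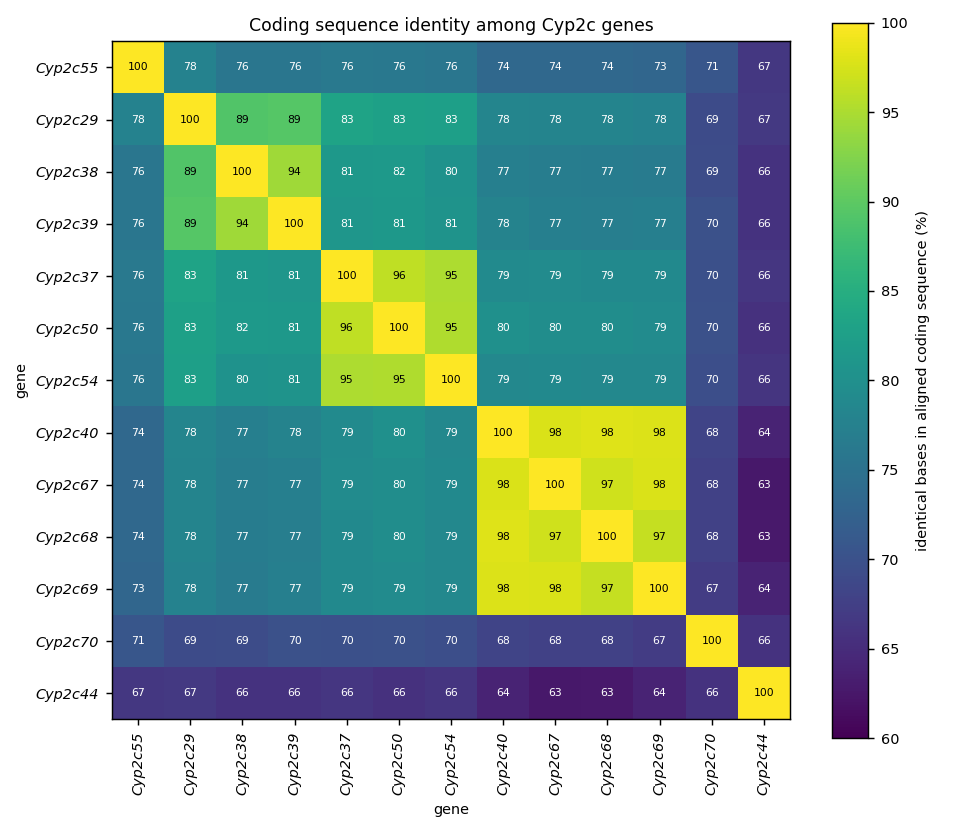
Heat map of the share of identical bases (%) in the aligned coding sequences of the 10 members and of Cyp2c69, Cyp2c70 and Cyp2c44, with genes on both axes and each square labeled with its rounded percentage. Cyp2c40, Cyp2c67, Cyp2c68 and Cyp2c69 form the most alike block, with pairs from 96.54% to 98.1%.

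The promoters of that block are shown because these 4 genes, close in sequence, had unlike levels in females and males, described next. The RefSeq table of GRCm38.p6 promoters, 250 bases before to 50 after each start, matched 9 of 10 members. All 4 below are on the minus strand, written 5′ to 3′, and capitals mark bases that differ from Cyp2c40 in the alignment. They are Cyp2c40 (chr19:39812765-39813064), Cyp2c69 (chr19:39886720-39887019), Cyp2c68 (chr19:39741052-39741351) and Cyp2c67 (chr19:39648993-39649292).
Cyp2c40: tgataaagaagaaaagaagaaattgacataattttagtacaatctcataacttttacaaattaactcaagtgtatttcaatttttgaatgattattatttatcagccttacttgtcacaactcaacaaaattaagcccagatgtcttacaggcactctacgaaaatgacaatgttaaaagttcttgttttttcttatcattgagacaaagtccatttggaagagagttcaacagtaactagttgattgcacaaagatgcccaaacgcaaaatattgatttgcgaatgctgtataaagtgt
Cyp2c69: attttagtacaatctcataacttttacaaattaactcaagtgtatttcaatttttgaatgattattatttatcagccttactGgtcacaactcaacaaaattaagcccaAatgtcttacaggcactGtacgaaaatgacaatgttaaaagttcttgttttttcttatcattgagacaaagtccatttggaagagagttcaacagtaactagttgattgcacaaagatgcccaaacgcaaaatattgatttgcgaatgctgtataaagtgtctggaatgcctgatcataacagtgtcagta
Cyp2c68: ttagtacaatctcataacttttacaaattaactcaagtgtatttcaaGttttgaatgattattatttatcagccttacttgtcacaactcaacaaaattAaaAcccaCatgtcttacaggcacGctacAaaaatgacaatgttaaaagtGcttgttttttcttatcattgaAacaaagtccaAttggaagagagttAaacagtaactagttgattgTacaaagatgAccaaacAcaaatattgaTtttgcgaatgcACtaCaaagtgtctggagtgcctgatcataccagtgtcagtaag
Cyp2c67: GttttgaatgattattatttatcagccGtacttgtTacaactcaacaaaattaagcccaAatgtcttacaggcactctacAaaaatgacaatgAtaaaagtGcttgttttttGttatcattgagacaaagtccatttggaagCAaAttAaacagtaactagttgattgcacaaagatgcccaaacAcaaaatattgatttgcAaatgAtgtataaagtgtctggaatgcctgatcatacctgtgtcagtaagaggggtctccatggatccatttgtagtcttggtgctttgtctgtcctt
Over the bases that could be aligned, the Cyp2c69 promoter matched Cyp2c40 at 267 of 270 positions, Cyp2c68 at 251 of 266 and Cyp2c67 at 205 of 220. The annotated starts are offset from each other, so the windows overlap only in part.

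Motifs were searched on both strands in the 10 RefSeq promoters of the members (Cyp2c39 has a pair) and in all 32851 promoters of the table. The nuclear receptor half-site AGGTCA was present in 2, those of Cyp2c29 at position −154 from the start and of 1 Cyp2c39 promoter at −25, against 16.26% of all promoters. The pattern TTGCNNCAA, searched as C/EBP, was present in 2, those of Cyp2c37 at −122 and Cyp2c50 at −120, against 2.079% of all promoters. These 2 promoters match each other at 264 of 295 aligned bases (89.49%), so their matches are not independent of each other. The matches describe this pattern only and are not taken as C/EBP sites. Both matches read TTGTAGCAA in the direction of the gene, which is the motif on the opposite strand. The STAT5 motif TTCNNNGAA was in 0 of the 10 (8.298% of all promoters). The RefSeq starts do not all coincide with the GENCODE gene models: that of Cyp2c29 lies inside the span of its gene model, which begins at 39269405, and the Cyp2c39 promoter with the match (chr19:39347096-39347395) lies far upstream of the Cyp2c39 gene model, which begins at 39510862. No matches overlapped each other, and a match or its lack describes the letters of these windows only. The promoters with the match are shown for the member with the largest fall in males and for the pair that shares a motif, with the match in capitals. All 3 are on the plus strand, at chr19:39286835-39287134 (Cyp2c29), chr19:39992174-39992473 (Cyp2c37) and chr19:40089429-40089728 (Cyp2c50).
Cyp2c29: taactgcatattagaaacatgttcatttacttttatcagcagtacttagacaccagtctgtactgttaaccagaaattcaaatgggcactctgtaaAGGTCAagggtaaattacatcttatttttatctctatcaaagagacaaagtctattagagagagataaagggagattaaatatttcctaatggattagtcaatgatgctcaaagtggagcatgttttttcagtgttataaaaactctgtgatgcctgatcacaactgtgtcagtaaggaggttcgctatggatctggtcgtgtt
Cyp2c37: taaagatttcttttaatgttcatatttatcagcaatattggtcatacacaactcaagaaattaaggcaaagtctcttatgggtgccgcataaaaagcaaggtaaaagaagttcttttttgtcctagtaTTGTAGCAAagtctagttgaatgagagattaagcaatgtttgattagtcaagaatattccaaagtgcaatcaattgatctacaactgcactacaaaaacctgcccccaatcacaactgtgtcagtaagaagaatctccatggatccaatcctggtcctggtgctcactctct
Cyp2c50: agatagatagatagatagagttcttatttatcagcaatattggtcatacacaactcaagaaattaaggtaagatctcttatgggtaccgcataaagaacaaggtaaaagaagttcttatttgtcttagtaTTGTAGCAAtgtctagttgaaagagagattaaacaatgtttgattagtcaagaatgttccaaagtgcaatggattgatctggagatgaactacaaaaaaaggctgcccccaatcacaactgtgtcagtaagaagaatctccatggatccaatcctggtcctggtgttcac

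On ND, WT females had the higher total of the family. The summed CPM of the 10 members was 6776 ± 571 (SD, n = 4) in ND-fed WT females and 4951 ± 574 in ND-fed WT males. CDAHFD-fed WT mice had 2229 ± 602 in females and 1703 ± 278 in males. Cyp2b-null mice had 7315 ± 415 and 4941 ± 304 on ND, and 2586 ± 182 and 1421 ± 253 on CDAHFD, for females and males. No ND-fed library of either sex was as low as the highest CDAHFD-fed library of its sex.

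Between genes, levels were compared per kilobase of transcript. Cyp2c29, an arachidonic acid epoxygenase, was the highest member in ND-fed mice of both sexes, with 1090.4 ± 46.0 CPM per kb (SD, n = 4) in ND-fed WT females and 1255 ± 123 in ND-fed WT males. In ND-fed WT females it was followed by Cyp2c37 (799 ± 132) and Cyp2c50 (701 ± 102), whose libraries overlapped, then by Cyp2c68 (409 ± 42.3) and Cyp2c40 (373 ± 42.6), which also overlapped. Below these were Cyp2c54 (196 ± 43.6), Cyp2c67 (127 ± 8.75) and Cyp2c38 (44.8 ± 7.32), each without overlap with its neighbors, and Cyp2c39 (9.81 ± 4.13) and Cyp2c55 (5.36 ± 1.98), which overlapped. Cyp2c55 is known mainly from the colon. In ND-fed WT males the order after Cyp2c29 was Cyp2c50 (644 ± 113), then Cyp2c54 (251 ± 40.7), Cyp2c37 (236 ± 47.9) and Cyp2c67 (205 ± 42.8), whose neighbors overlapped, and Cyp2c40 was at only 9.10 ± 4.33 CPM per kb. On CDAHFD the first place passed to Cyp2c50, with 402 ± 113 CPM per kb in WT females and 402 ± 115 in WT males, although its libraries overlapped with those of Cyp2c29 in WT females.

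The make-up of the family shifted with these levels. Cyp2c29 made up 45.4% ± 4.07 (SD, n = 4) of the summed CPM of the members in ND-fed WT males and 10.5% ± 3.71 in CDAHFD-fed WT males. In females its share was 28.8% ± 1.73 on ND and 20.03% ± 2.47 on CDAHFD. Cyp2c50, which epoxidizes arachidonic and linoleic acid, went from 23.5% ± 2.36 to 42.3% ± 5.72 in WT males and from 18.7% ± 1.32 to 32.7% ± 4.67 in WT females. Cyp2c40 made up 9.99% ± 1.66 in ND-fed WT females and 1.75% ± 0.554 on CDAHFD, but 0.327% ± 0.132 and 0.358% ± 0.0289 in males. These shares describe the mixture and were not tested.

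**Figure D2:**
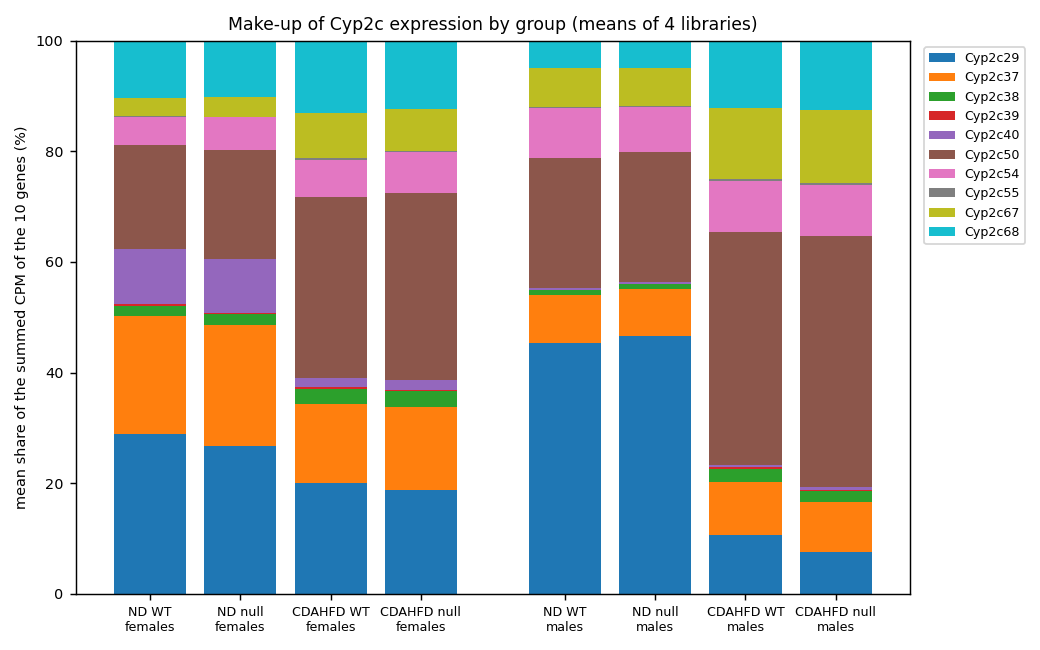
Stacked bars of the mean share (%) that each of the 10 genes had in their summed CPM, for the 8 groups of 4 libraries. The Cyp2c29 band is widest in ND-fed males (about 45.4% ± 4.07 in WT) and narrow in CDAHFD-fed males, where Cyp2c50 takes the largest band.

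The first question was how the diet changed each member. In WT females 9 of 10 members fell and 0 rose on CDAHFD (edgeR quasi-likelihood test, n = 4 per group), where 10.2% of all genes tested fell and 13.9% rose. In WT males 6 of 10 fell and 0 rose, where 15% of all genes fell and 18% rose. Under scaling by library size only, 4 fell in WT males and 1, Cyp2c39, rose (1.20). In Cyp2b-null females 9 of 10 fell and 0 rose (background 13.9% and 16.9%), and in Cyp2b-null males 9 of 10 fell and 0 rose (background 17.1% and 20.3%). That scaling left 6 that fell in each Cyp2b-null sex, and 9 in WT females. The shares of all genes given here are those with TMM factors and do not apply to that scaling. The median log2 change of the members was −1.24 in WT females and −0.78 in WT males, against −0.00215 and −0.0228 over all genes tested. In Cyp2b-null mice it was −1.12 in females and −1.01 in males. The members share much of their sequence and their libraries, so they are not separate replicates.

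Cyp2c29 (chromosome 19, 39269405 to 39330713, plus strand) fell in every setting and most of all in males. In WT males its CPM was 2044, 2056, 2469 and 2381 in the 4 ND-fed libraries and 122, 245, 128 and 209.8 in the 4 CDAHFD-fed libraries. The lowest ND-fed library was therefore far above the highest CDAHFD-fed library. The log2 change was −3.66 (SE 0.218, adjusted p = 2.106e-10) by edgeR's quasi-likelihood test. In WT females CPM went from 2014, 1974, 1962 and 1826 on ND to 669, 435, 357 and 335 on CDAHFD, without overlap, and the log2 change was −2.09 (SE 0.179, adjusted p = 4.577e-08). Cyp2b-null males had 2237, 2391, 2219.5 and 2328 CPM on ND and 133, 117, 104 and 72.0 on CDAHFD, with a change of −4.43 (SE 0.226, adjusted p = 1.521e-11). In Cyp2b-null females CPM was 2002, 1899.7, 2131 and 1761 on ND and 401, 566, 476 and 500.0 on CDAHFD, with a change of −1.98 (SE 0.178, adjusted p = 8.03e-08). On ND each male library was slightly above each female library of its genotype, and on CDAHFD every male library was below every female library.

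Cyp2c40 (chromosome 19, 39767071 to 39812814, minus strand), an arachidonic acid hydroxylase, was a female-enriched member that fell more than any other member in females. ND-fed WT females had 561, 679, 715 and 732 CPM and CDAHFD-fed WT females 68.5, 21.7, 37.5 and 31.1. All ND-fed values exceeded all CDAHFD-fed values, and replicate 1 was the highest of the CDAHFD-fed group. The log2 change was −4.06 (SE 0.323, adjusted p = 1.509e-08). Male levels were low on both diets, with 16, 11.6, 27.6 and 10.5 CPM in ND-fed and 7.02, 5.62, 4.79 and 6.92 in CDAHFD-fed WT libraries, and the groups did not overlap. There the change was −1.46 (SE 0.290, adjusted p = 5.32e-04). Cyp2b-null females went from 661, 709, 649 and 818 to 21.9, 38.7, 80.3 and 46.2 CPM, a change of −3.89 (SE 0.319, adjusted p = 2.2e-08), and Cyp2b-null males from 14.5, 12.1, 12.4 and 20.8 to 6.12, 4.69, 3.92 and 7.79, a change of −1.45 (SE 0.290, adjusted p = 4.51e-04).

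Cyp2c69, the neighbor closest to Cyp2c40 in its promoter, fell still more. CPM was 852, 1170.2, 891 and 782 in ND-fed and 26.0, 10.2, 9.37 and 16.9 in CDAHFD-fed WT females, a log2 change of −5.86 (SE 0.357, adjusted p = 3.095e-10). Cyp2b-null females had 712, 744, 773 and 975 CPM on ND and 6.79, 16.3, 31.1 and 15.1 on CDAHFD, a change of −5.49 (SE 0.349, adjusted p = 4.914e-10). In males only 6 to 54 counts (ND) and 5 to 9 counts (CDAHFD) were found per WT library. The WT male change of −1.49 (adjusted p = 0.0373) was no longer called when any 1 of ND-fed replicates 1 and 3 or CDAHFD-fed replicates 1 to 4 was left out, with values from −0.76 to −1.63. It was −1.10 and also not called when counts were scaled by library size only, nor was it called by the study's 2-step rule (a test of any group difference, then pairwise tests).

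Cyp2c68 and Cyp2c67, the other members of this close group, moved less. Cyp2c68 CPM was 677, 794, 726 and 623 in ND-fed and 369, 244, 266 and 262 in CDAHFD-fed WT females, with no overlap, and the log2 change was −1.28 (SE 0.161, adjusted p = 5.89e-06). In WT males it was 233, 180.0, 299.9 and 259 on ND and 223, 199, 178 and 217 on CDAHFD. These overlapped, and the change of −0.25 (SE 0.148, adjusted p = 0.213) was not called. Cyp2b-null mice had Cyp2c68 changes of −1.20 (adjusted p = 1.15e-05) in females and −0.47 (adjusted p = 0.0171) in males. The male call was lost without ND-fed replicate 4 (−0.42), CDAHFD-fed replicate 2 (−0.43) or CDAHFD-fed replicate 3 (−0.38), and under scaling by library size only (−0.11). Cyp2c67 CPM was 358, 269, 449 and 345 in ND-fed and 234, 215, 194 and 225 in CDAHFD-fed WT males. The groups did not overlap, and the log2 change was −0.71 (SE 0.161, adjusted p = 0.00168), which was −0.33 and not called under scaling by library size only. WT females had 201, 220.0, 238 and 218 CPM on ND and 191, 149, 192 and 162 on CDAHFD, close together but not overlapping, and the change of −0.31 (SE 0.139, adjusted p = 0.115) was not called. The sum of Cyp2c40, Cyp2c67, Cyp2c68 and Cyp2c69 does not depend on how counted reads were split among them. It would still lack any shared reads that were not counted. This sum went from 2520 ± 258 to 514 ± 99.2 CPM (SD, n = 4) in WT females and from 618 ± 132 to 429 ± 38.5 in WT males.

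Cyp2c37, an arachidonic acid hydroxylase and a known CAR target, also fell in both sexes. In WT females CPM was 1615, 1700.4, 1325 and 1189 on ND and 581, 330.0, 241 and 181 on CDAHFD. No library overlapped, replicate 1 was the highest of the CDAHFD-fed group, and the log2 change was −2.11 (SE 0.260, adjusted p = 4.73e-06). In WT males CPM was 529, 317, 428 and 446 on ND and 152, 143, 143 and 213 on CDAHFD, without overlap, and the change was −1.40 (SE 0.181, adjusted p = 4.29e-06). Cyp2b-null mice showed −2.02 (adjusted p = 7.57e-06) in females and −1.70 (adjusted p = 3.038e-07) in males. Its close relatives Cyp2c50 and Cyp2c54, both epoxygenases of arachidonic and linoleic acid, fell in all 4 settings. Cyp2c50 changed the least of the 3, from 1271 ± 184 to 729 ± 204 CPM (SD, n = 4) in WT females (−0.78 (adjusted p = 0.00255) by edgeR) and from 1168 ± 204 to 728 ± 208 in WT males (−0.68 (adjusted p = 0.00489)). The WT male Cyp2c50 libraries overlapped, and its call there and in Cyp2b-null females was lost under scaling by library size only (−0.32 and −0.44). Cyp2c54 went from 351 ± 77.9 to 152 ± 63.8 CPM in WT females (−1.18 (adjusted p = 0.00111)) and from 449 ± 72.7 to 159.8 ± 62.1 in WT males (−1.49 (adjusted p = 8.00e-05)). The sum of the 3 genes went from 3079 ± 476 to 1214 ± 397 CPM in WT females and from 2047 ± 356 to 1051 ± 265 in WT males.

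Cyp2c38 and Cyp2c39 fell in WT females and were not called in WT males. Cyp2c38, an arachidonic acid epoxygenase, had 134, 155, 108 and 117 CPM in ND-fed and 64.1, 52.9, 45.0 and 69.7 in CDAHFD-fed WT females, without overlap, and the diet effect was −1.12 (SE 0.209, adjusted p = 4.17e-04). WT males had 43.4, 33.3, 36.6 and 47.5 CPM on ND and 20.3, 30.8, 40.0 and 66.6 on CDAHFD. The CDAHFD-fed libraries spread to both sides of the ND-fed ones, and the change was −0.02 (SE 0.248, adjusted p = 0.967). In Cyp2b-null males Cyp2c38 had a change of −0.72 (adjusted p = 0.0280), which was no longer called without ND-fed replicate 1 (−0.70) or 4 (−0.63), or CDAHFD-fed replicate 2 (−0.60), 3 (−0.74) or 4 (−0.66), nor under scaling by library size only (−0.34) or by the study's 2-step rule. Cyp2c39, which hydroxylates retinoic acid, had 9.54, 13.8, 25.9 and 22.1 CPM in ND-fed and 5.91, 3.78, 3.19 and 4.37 in CDAHFD-fed WT females, with no overlap and a change of −2.01 (SE 0.371, adjusted p = 3.82e-04). WT males had only 3 to 17 counts per ND-fed library and 12 to 35 per CDAHFD-fed library, 2.94, 0.496, 2.33 and 1.53 and 2.28, 3.12, 4.09 and 3.19 CPM, and the change was 0.81 (SE 0.399, adjusted p = 0.130). In Cyp2b-null females the Cyp2c39 change of −1.10 (adjusted p = 0.0301) was no longer called without ND-fed replicate 1 (−0.84), CDAHFD-fed replicate 1 (−0.99) or CDAHFD-fed replicate 3 (−0.81), nor under scaling by library size only (−0.83).

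Cyp2c55, like Cyp2c39, was near the bottom of the family. Its CPM went from 10.7 ± 3.95 to 4.58 ± 1.46 (SD, n = 4) in WT females, a log2 change of −1.20 (SE 0.307, adjusted p = 0.00629), with 15 to 61 counts per library. In WT males it was 9.82 ± 2.75 on ND and 5.46 ± 2.37 on CDAHFD. That change of −0.86 (SE 0.344, adjusted p = 0.0617) was not called, but it was called in 4 of the alternatives and without ND-fed WT replicate 1 (−1.02), CDAHFD-fed WT replicate 2 (−1.12), ND-fed Cyp2b-null replicate 1 (−0.86) or CDAHFD-fed Cyp2b-null replicate 4 (−0.86). Cyp2b-null mice had −0.49 (adjusted p = 0.234) in females and −1.15 (adjusted p = 0.00973) in males, where the call was lost under scaling by library size only (−0.76). The Cyp2c67 change in Cyp2b-null females (−0.38 (adjusted p = 0.0420)) was lost without ND-fed replicate 2 (−0.31) or 4 (−0.30), or CDAHFD-fed replicate 1 (−0.32), 2 (−0.41) or 4 (−0.38), under scaling by library size only (−0.13), and when only the groups compared were fitted (−0.38).

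**Figure D3:**
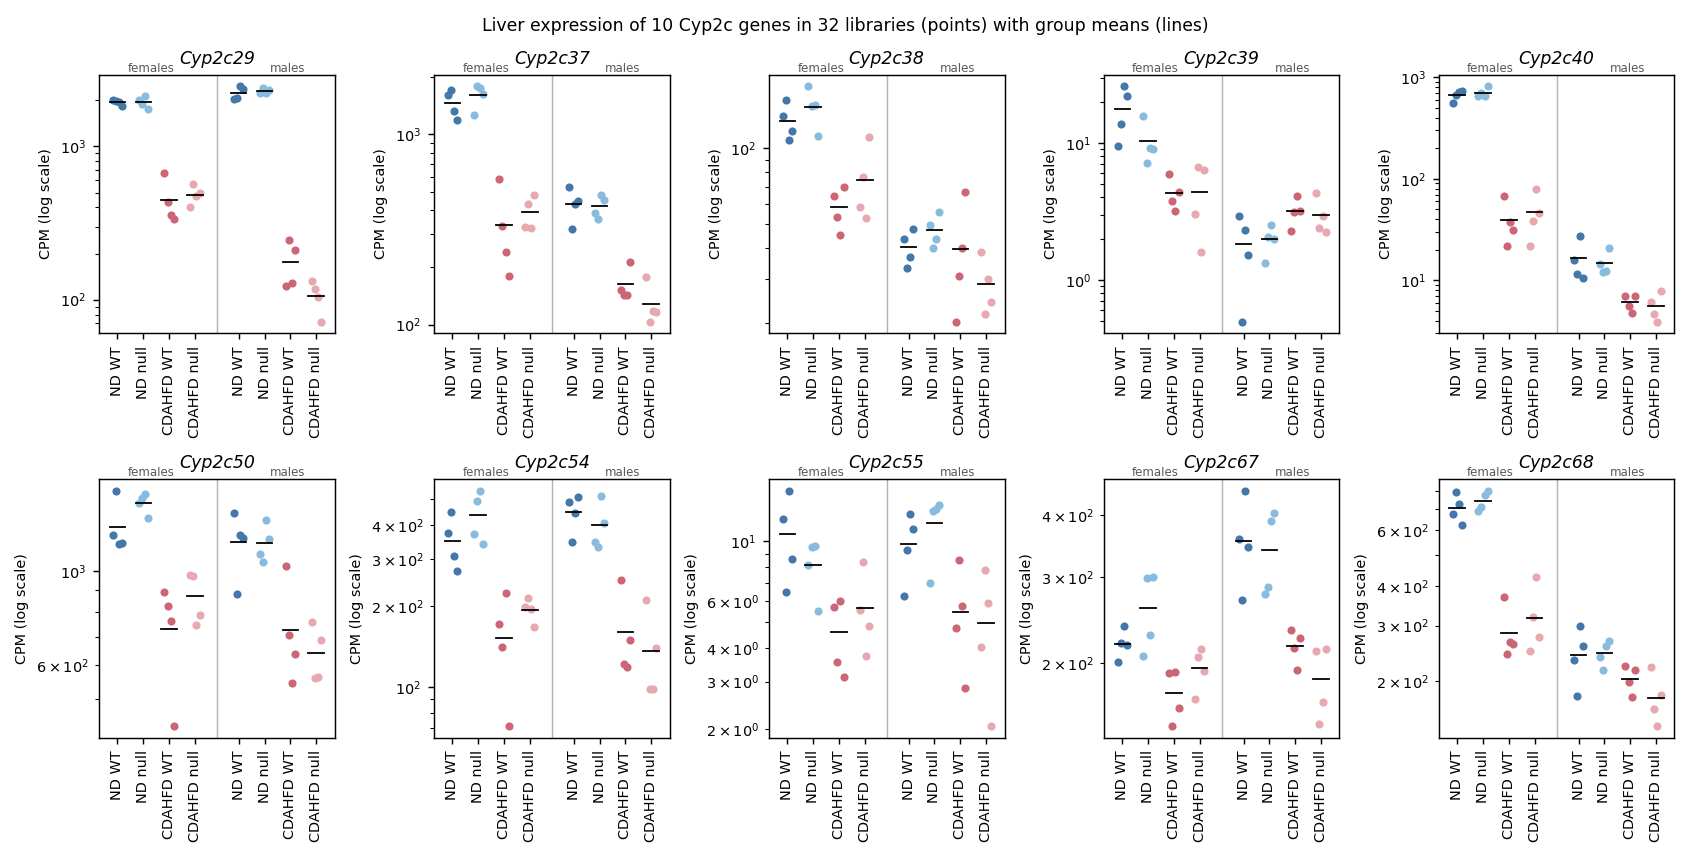
CPM of each of the 10 members (log axis) in 32 libraries, grouped by diet, genotype and sex, with points for libraries and lines for group means of 4. Cyp2c29 and Cyp2c40 show the widest gaps between ND and CDAHFD, and Cyp2c40 also the widest gap between females and males on ND.

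**Figure D4:**
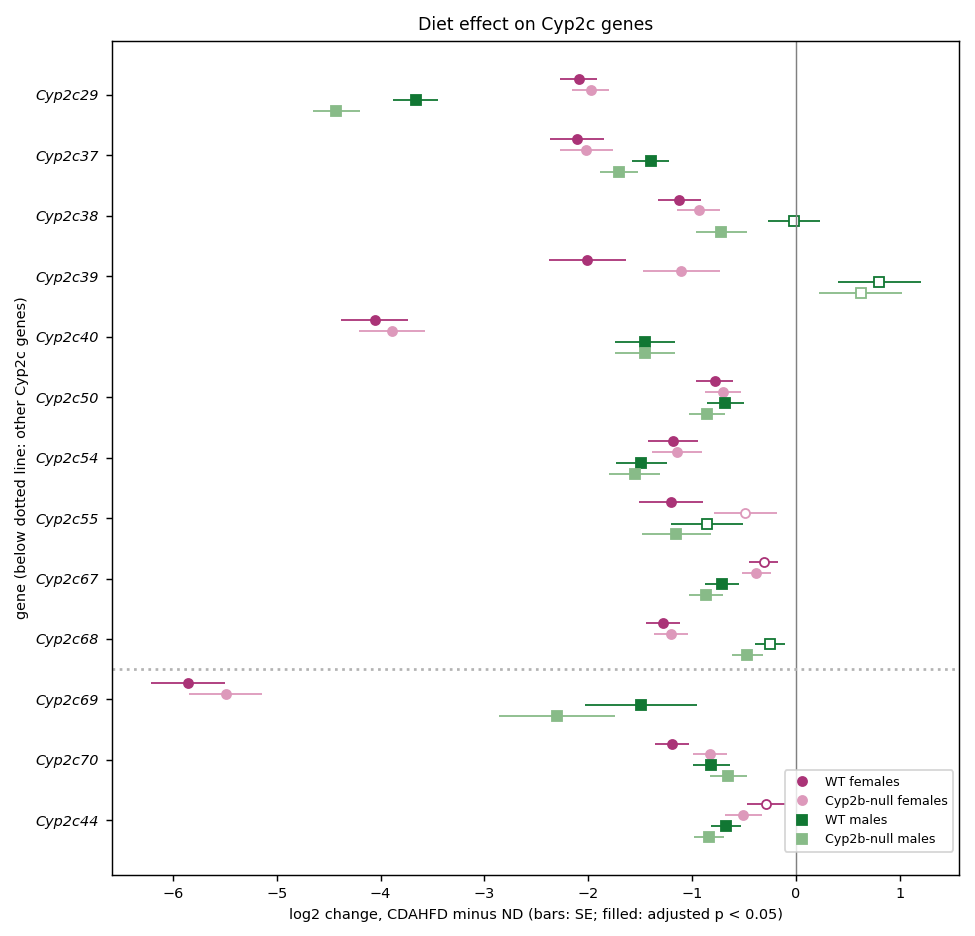
Log2 change on CDAHFD relative to ND for the 10 members and, under the dotted line, 3 further Cyp2c genes, in WT and Cyp2b-null females and males, with bars for SE and filled symbols for called changes. Cyp2c29 lies furthest left among the members in males (−3.66 in WT) and Cyp2c40 in females (−4.06 in WT).

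Of the other detected relatives, Cyp2c70 fell in WT mice of both sexes and Cyp2c44 in WT males. Cyp2c70, which makes muricholic acids in mouse bile acid synthesis, changed by −1.20 (adjusted p = 1.44e-05) in WT females and −0.81 (adjusted p = 0.00128) in WT males. Cyp2c44, an arachidonic acid epoxygenase that lies apart from the cluster (chromosome 19, 44005022 to 44029208), changed by −0.29 (adjusted p = 0.271) in WT females, where it was not called, and by −0.67 (adjusted p = 0.00101) in WT males. Cyp2c65 and Cyp2c66 had at most 1 count in any library and Cyp2c53-ps at most 5.

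The question of whether the loss of Cyp2b changed the Cyp2c genes was addressed on each diet. The edgeR test called 0 of 10 members in each of the 4 genotype comparisons. Over all genes tested, 0.0756% were called on ND and 0.0227% on CDAHFD in females, and 0.0371% and 0.0297% in males. At an unadjusted p-value under 0.05 there was 1 member on ND in females (Cyp2c39, −0.81 ± 0.347 log2 ± SE), 0 on CDAHFD in females, 0 on ND in males and 1 on CDAHFD in males (Cyp2c29). At that threshold 5.75% and 5.83% of all genes passed in females on ND and CDAHFD, and 8.26% and 3.62% in males. DESeq2 also called 0 in each. On ND the Cyp2b-null minus WT log2 differences ran from −0.81 to 0.32 in females and from −0.16 to 0.23 in males. On CDAHFD they were 0.10 to 0.37 in females and −0.72 to −0.06 in males. Cyp2c29 in CDAHFD-fed males, with 122, 245, 128 and 209.8 CPM in WT and 133, 117, 104 and 72.0 in Cyp2b-null libraries, overlapped between genotypes, and its difference was −0.72 (SE 0.200, adjusted p = 0.9999). Without the filter on low counts Cyp2c29 was called in that test, and the share of all genes called in that fit is not given here.

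Nor was a diet effect that depended on genotype called for any member. The diet by genotype interaction was called for 0 of 10 members in females and 0 in males by edgeR, and DESeq2 called 0 as well, where 0% and 0.00743% of all genes were called. At an unadjusted p-value under 0.05 there were 0 members in females and 1 in males, Cyp2c29, with a difference of −0.76 (SE 0.279, adjusted p = 0.699). Over all genes, 6.28% and 6.07% passed at that threshold. The other differences ran from −0.07 to 0.91 in females and from −0.70 to 0.00 in males.

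A fit of all 32 libraries was used to compare females with males. On ND, 5 of 10 members were called higher in WT females, where 9.45% of all genes were, and 1 was called lower, where 8.35% were. Cyp2c40 had 561, 679, 715 and 732 CPM in females and 16, 11.6, 27.6 and 10.5 in males, with no overlap and a log2 difference (females minus males) of 5.33 (SE 0.336, adjusted p = 3.818e-14), a mean 40.9-fold higher. Cyp2c39 (17.8 ± 7.497 against 1.83 ± 1.06 CPM) differed by 3.26 (SE 0.394, adjusted p = 2.196e-07), Cyp2c37 (1457 ± 240.4 against 429.9 ± 87.4) by 1.76 (SE 0.239, adjusted p = 1.96e-06), Cyp2c38 (129 ± 21.0 against 40.2 ± 6.43) by 1.68 (SE 0.246, adjusted p = 8.08e-06) and Cyp2c68 (705 ± 72.9 against 243 ± 50.2) by 1.53 (SE 0.162, adjusted p = 1.443e-08) (n = 4 per group, edgeR). Cyp2c67 was the member lower in WT females, with 201, 220.0, 238 and 218 CPM against 358, 269, 449 and 345 in males and a difference of −0.70 (SE 0.154, adjusted p = 0.00169). Cyp2c69 was the most female-enriched of the relatives, with a difference of 7.98 (SE 0.425, adjusted p = 6.718e-16). In ND-fed Cyp2b-null mice 5 of 10 were called higher in females (background 7.13%) and 0 lower (6.13%). Those 5 were Cyp2c37 (1.94), Cyp2c38 (1.63), Cyp2c39 (2.40), Cyp2c40 (5.57) and Cyp2c68 (1.60), and Cyp2c67 had −0.39 (adjusted p = 0.0873).

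Fewer members differed between the sexes of CDAHFD-fed WT mice. There 4 of 10 members were called higher in females (background 5.12%) and 0 lower (5.91%), and in Cyp2b-null mice 5 of 10 (9.05%) and 0 (9.06%). Cyp2c29 was called on CDAHFD but not on ND, with a female minus male difference of 1.35 (SE 0.197, adjusted p = 3.43e-05) in WT and 2.19 (SE 0.202, adjusted p = 3.223e-09) in Cyp2b-null mice, against −0.20 (adjusted p = 0.506) and −0.24 (adjusted p = 0.462) on ND. Cyp2c40 stayed higher in females, by 2.71 (SE 0.340, adjusted p = 2.96e-06) in WT and 3.12 (SE 0.335, adjusted p = 8.442e-08) in Cyp2b-null mice. Cyp2c37 was higher by 1.03 (adjusted p = 0.00500) and 1.60 (adjusted p = 4.01e-05), and Cyp2c38 was called in Cyp2b-null mice (1.39 (adjusted p = 2.90e-04)) and not in WT mice (0.55 (adjusted p = 0.140)). For Cyp2c68 the WT difference of 0.48 (adjusted p = 0.0458) was lost in 21 of 32 fits that left out 1 library, with values from 0.33 to 0.55, and the WT call of Cyp2c37 was lost without CDAHFD-fed WT female replicate 1 (0.62) and by the study's 2-step rule. Without that library, the calls left in WT mice were those of Cyp2c29 and Cyp2c40. The share of all genes called in that fit is not given here. Cyp2c68 was called in Cyp2b-null mice (0.84 (adjusted p = 6.19e-04)).

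**Figure D5:**
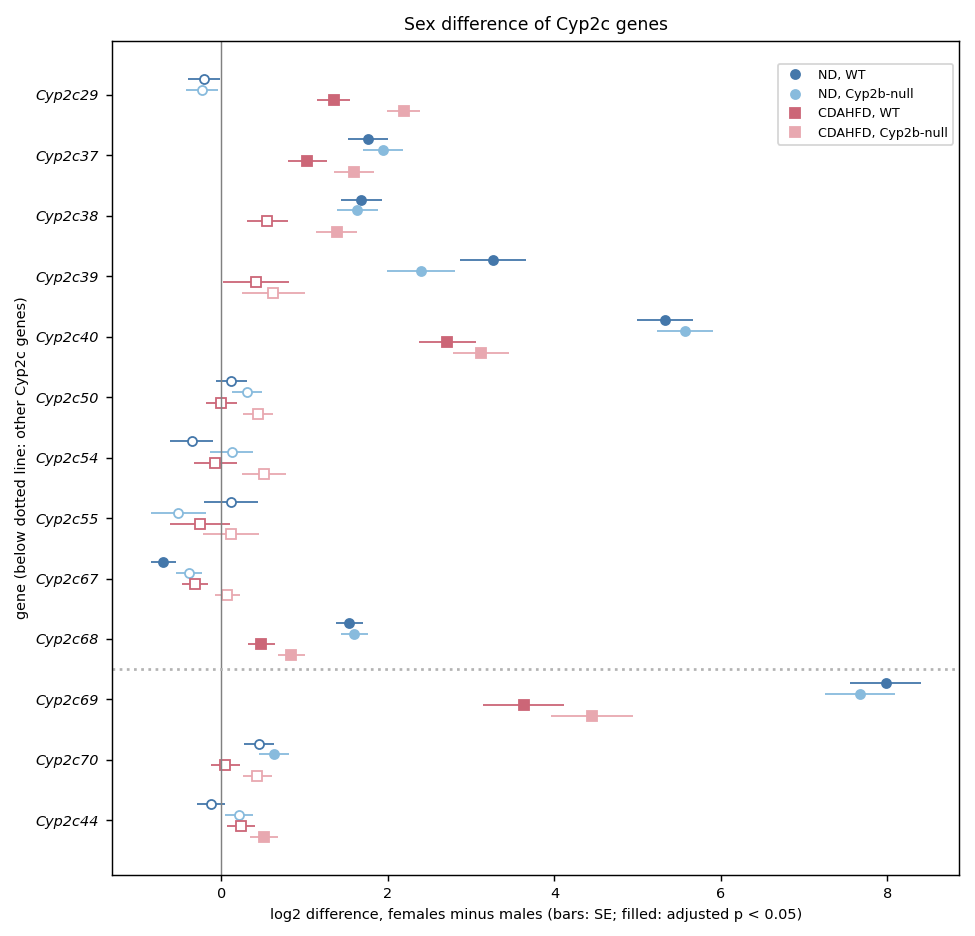
Log2 difference, females minus males, of the 10 members and of Cyp2c69, Cyp2c70 and Cyp2c44 on ND and on CDAHFD in WT and Cyp2b-null mice, with bars for SE and filled symbols for called differences. Cyp2c40 and Cyp2c69 lie far to the right on ND (5.33 and 7.98 in WT) and less far on CDAHFD (2.71 and 3.63), while Cyp2c29 moves to the right on CDAHFD.

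Whether the diet effect itself differed between the sexes was tested as an interaction, the female minus the male effect. In WT mice 4 of 10 members were called, where 0.97% of all genes were, and in Cyp2b-null mice 2 of 10, where 3.4% were. Cyp2c29 fell by more in males, with a difference of 1.55 (SE 0.275, adjusted p = 0.00174) in WT and 2.42 (SE 0.277, adjusted p = 1.28e-06) in Cyp2b-null mice. Cyp2c40 fell by more in females, with −2.62 (SE 0.458, adjusted p = 0.00155) and −2.45 (SE 0.453, adjusted p = 0.00168). In WT mice Cyp2c39 (−2.85 (SE 0.564, adjusted p = 0.00631)) and Cyp2c68 (−1.05 (SE 0.225, adjusted p = 0.0128)) were called too, and in Cyp2b-null mice they had −1.77 (adjusted p = 0.0712) and −0.76 (adjusted p = 0.0530), not called. For Cyp2c39 the ND-fed WT male libraries had only 3 to 17 counts, and its WT male diet change of 0.81 was not called. Cyp2c38 differed by −1.13 (adjusted p = 0.130) in WT mice, which was not called. Both Cyp2c39 and Cyp2c68 were called in Cyp2b-null mice without the filter on low counts or with DESeq2. These tests use the same libraries as the sex comparisons on each diet.

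Genes around the Cyp2c proteins were counted in lists by role, and medians are over the genes tested in each list. For each list here and the markers below, the shares of all genes tested are the same. They were 10.2% that fell and 13.9% that rose in WT females, and 15% and 18% in WT males. Of 6 genes for electron donors and other partners of P450 enzymes, 5 fell in WT females and 4 in WT males, with median log2 changes of −0.57 and −0.64. Cyb5b, a cytochrome b5, changed by −0.93 (adjusted p = 1.74e-04) and −0.84 (adjusted p = 7.42e-05), and Pgrmc2, a heme-binding partner of P450 enzymes, by −0.59 (adjusted p = 0.00104) and −0.74 (adjusted p = 9.49e-04) (females and males, edgeR). Among 7 tested genes for epoxide hydrolases, arachidonate release and Cyp2j epoxygenases, 3 fell and 2 rose in WT females and 5 fell and 1 rose in WT males, with Cyp2j5 at −0.95 (adjusted p = 1.27e-05) and −1.14 (adjusted p = 1.84e-06) and Cyp2j9 at −1.35 (adjusted p = 0.0253) and −1.998 (adjusted p = 4.96e-04). Pla2g4a, a phospholipase that frees arachidonic acid, was at 0.89 (adjusted p = 0.0409) and 2.06 (adjusted p = 0.00211).

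Of 16 nuclear receptors and liver transcription factors, 4 fell in WT females and 8 in WT males and 0 rose (medians −0.34 and −0.51). Hnf4a, a hepatocyte factor, was at −0.58 (adjusted p = 0.0114) and −0.74 (adjusted p = 7.13e-05), and Nr3c1, the glucocorticoid receptor, at −0.47 (adjusted p = 0.0465) and −0.52 (adjusted p = 0.0113) (edgeR). Of other CAR and PXR target genes, 4 of 16 tested fell and 2 rose in WT females, and 4 of 15 fell and 4 rose in WT males. Over all genes tested 13.9% rose in WT females and 18% in WT males. Ces2a was at −2.90 (adjusted p = 4.371e-09) and −3.20 (adjusted p = 2.841e-11), and Cyp3a11 at −0.69 (adjusted p = 0.00754) and −0.92 (adjusted p = 3.27e-04) (edgeR). Gstm3 was at 1.48 (adjusted p = 1.29e-04) and 2.52 (adjusted p = 6.77e-06). For the growth hormone and STAT5 axis 5 of 14 fell and 1 rose in WT females, and 3 of 13 fell and 1 rose in WT males, with the growth hormone receptor Ghr at −1.20 (adjusted p = 1.23e-05) and −1.03 (adjusted p = 6.32e-05) and Igf1 at −0.49 (adjusted p = 0.0320) and −0.92 (adjusted p = 2.51e-04). Of the genes that flank the cluster, 0 of 8 fell and 2 rose in WT females, and 0 fell and 5 rose in WT males (medians 0.54 and 0.68). Over all genes tested 10.2% fell in WT females and 15% in WT males, so 0 falls in so short a list is near that share. Aldh18a1, an enzyme of proline synthesis, was at 1.63 (adjusted p = 0.0395) and 2.64 (adjusted p = 3.83e-06) (edgeR).

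Markers of liver cell types moved with the diet as well. Hepatocyte markers fell for 4 of 8 genes in WT females, and 5 of 8 fell and 1 rose in WT males (medians −0.57 and −0.64). Their summed CPM was 170048 to 239195 in ND-fed and 121295 to 140776 in CDAHFD-fed WT females, and 154012 to 170315 and 92929 to 149074 in WT males. Apoa2 changed by −0.92 (adjusted p = 3.90e-04) and −0.89 (adjusted p = 0.00670), and Ttr by −0.83 (adjusted p = 0.00274) and −0.75 (adjusted p = 0.0110) (edgeR). Periportal hepatocyte markers fell for 8 of 9 genes and 1 rose in WT females, and 6 fell and 1 rose in WT males, with Gls2 at −1.25 and −0.87, Hal at −1.22 and −1.41, and Hsd17b13 at 0.74 and 0.44. Pericentral markers fell for 4 of 8 genes and 1 rose in WT females, and 0 fell and 4 rose in WT males. Rhbg, an ammonium transporter, was the 1 that rose in WT females (1.14), and it rose in WT males (2.51). The summed pericentral CPM was 8490 to 11709 on ND and 5217 to 8737 on CDAHFD in WT females. In WT males it was 7674 to 10472 and 7777 to 9322.

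Macrophage markers rose for 6 of 9 genes in WT females and 7 of 9 in WT males, with 1 that fell in each, and stellate cell and fibroblast markers for 6 of 9 in each sex with 0 that fell. The summed macrophage CPM was 387 to 640.4 on ND and 1024 to 1328 on CDAHFD in WT females, and 166 to 331 and 893 to 1865 in WT males, and Trem2 had 0 counts in every library. Summed stellate and fibroblast CPM was 109.8 to 182 on ND and 416 to 612 on CDAHFD in WT females, and 118 to 145 and 428 to 621 in WT males. Cd68, a lysosomal protein of macrophages, was at 2.52 (adjusted p = 1.276e-07) and 3.70 (adjusted p = 3.163e-09), and the largest rise was that of Gpnmb, a glycoprotein of lipid-laden macrophages, with 0 to 2 counts per ND-fed and 654 to 1453 per CDAHFD-fed WT female library, and 0 to 2 and 1256 to 4850 in WT males. Timd4, a receptor of resident Kupffer cells, was the marker that fell, with 27 to 56 counts on ND and 0 to 5 on CDAHFD in WT females and 13 to 34 and 4 to 7 in WT males. Timp1, an inhibitor of matrix proteases, rose from 0 to 3 counts per library to 23 to 46 in WT females and from 0 to 2 to 19 to 53 in WT males, and Acta2, the actin of activated stellate cells, from 0 to 4 to 19 to 57 and from 1 to 8 to 25 to 60. Of the endothelial markers 3 of 7 fell in WT females, and 2 fell and 1 rose in WT males, with Kdr at −1.02 and −0.83 and Ptprb at −0.90 and −1.07. Of the genes listed as lymphocyte markers only Ptprc rose (1.38 and 2.14), 1 of 3 tested in WT females and 1 of 2 in WT males. That single gene is not taken as a rise of lymphocytes. Of those listed as cholangiocyte markers 2 of 5 rose in each sex (Spp1, 1.95 and 2.97), and no cell type is inferred from Spp1. Markers of intestine and pancreas rose for 1 of 2 genes in females and 0 of 2 in males. The part of these cell types in the fall of the members was not tested.

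Within groups the members varied together only in part. Over the 16 libraries of a sex, after group means were removed, the median correlation of the 45 member pairs was 0.257 in females and 0.327 in males. The highest in females was Cyp2c29 with Cyp2c37 (0.855), and Cyp2c50 with Cyp2c54 reached 0.810 in females and 0.878 in males. The latter pair shares sequence, and all libraries share their depth, so these values are descriptions. The genes whose log2 CPM followed the summed members most closely over the 16 libraries were Ces1d (r = 0.985), Ces2a (0.978) and Dpys (0.973) in females, and Baat (0.992), Cyp27a1 (0.991) and Gm9826 (0.990) in males. After group means were removed these were 0.858, 0.592 and 0.670 in females and 0.868, 0.767 and 0.870 in males.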

How the data were processed

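RNA-seq of 32 mouse liver libraries was analyzed, 4 per group of diet, genotype and sex. The authors deposited raw read counts per gene, 1 table per sex, which they made with FastQC, Trimmomatic, GSNAP and Subread on GRCm38.p6. The settings for strand and for reads that map more than once are not given in the sources used here. Columns were matched to libraries by title, and 0 columns of the tables were left unused. The members and gene lists were chosen with earlier results of these data known.

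Low counts were filtered with filterByExpr (minimum count 10, minimum total 15), counts were scaled with TMM factors, and edgeR 4.0.16 (R 4.3.3, quasi-likelihood test, group means model, all 16 libraries of a sex, or all 32 for sex differences) gave log2 changes, with p-values adjusted over all genes tested. Replicate numbers do not pair mice across groups, so no block was used. Named are all 10 members, the other Cyp2c genes of the tables, per list up to 2 genes per direction that were called in WT mice of both sexes with the largest female change, and per sex the 3 genes most correlated with the summed members. Gene models and transcript lengths were from GENCODE vM21, and promoters from RefSeq (GRCm38.p6). The test was tested on simulated data of WT diet contrasts: for genes changed by 1 on the log2 scale it made the call for 60% (females) and 72% (males), and for those changed by 2 for 94% and 89%, with 0 wrong signs. Among genes simulated without a change it called 7 (females) and 12 (males). Replicate libraries differed by 3.168 to 59.48 times the sampling noise (chi-square per degree of freedom, 48 pairs), so none was a copy. Alternatives were RLE factors, library size only, no filter, at least 1 CPM in at least 4 libraries, DESeq2 1.42.0, only the groups compared, the study's 2-step rule, the 15 libraries per sex shown in the study's heat maps, fits with a replicate block, and fits that each lacked 1 library.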

Additional observations from a re-analysis of the deposited data

Results flagged for a closer look

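The diet effect differed between the sexes, by a test of the difference itself (edgeR quasi-likelihood interaction, female minus male effect), for 8 gene and genotype combinations. Cyp2c29 had 1.55 in WT and 2.42 in Cyp2b-null mice, which means a larger fall in males. Cyp2c40 had −2.62 and −2.45, Cyp2c39 had −2.85 in WT mice, Cyp2c68 had −1.05 in WT mice, and Cyp2c69, a relative outside the members, had −4.35 in WT and −3.22 in Cyp2b-null mice. The Cyp2c69 value in Cyp2b-null mice was −2.78 and no longer called when CDAHFD-fed male replicate 1 was left out. No other of these calls was lost when a single library was left out. The Cyp2c39 value rests in part on ND-fed WT male libraries with only 3 to 17 counts.

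In 3 of 104 groups of 4 libraries, 1 library stood apart from the other 3 by Dixon's criterion, which by chance picks about 1 in 20 groups. Cyp2c37 was at 213 CPM in CDAHFD-fed WT male replicate 4, where the others were at 143 to 152 CPM. Cyp2c50 was at 1544 CPM in ND-fed WT female replicate 2, where the others were at 1159 to 1214. Cyp2c55 was at 7.003 CPM in ND-fed Cyp2b-null male replicate 1, where the others were at 13.0 to 13.7. The cause was not tested.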

How the results depend on the processing

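Most results kept their direction and their side of the threshold: 729 of the values under the other settings and 1853 of those with 1 library left out, while 26 and 59 lost their call, 6 and 4 gained one, and 4 and 4 turned sign. The 4 that turned sign under scaling by library size only were Cyp2c67 (0.012) and Cyp2c44 (0.030) in WT females and Cyp2c38 (0.40) and Cyp2c68 (0.13) in WT males, all diet effects that were not called. That scaling moved the median of all genes by 0.32 in WT females and 0.37 in WT males. The Cyp2c38 diet effect in WT males (−0.02) was also positive without ND-fed replicate 1 (0.02) or 4 (0.07), or CDAHFD-fed replicate 1 (0.21) or 2 (0.08), within a range of −0.38 to 0.21 over the fits that left out 1 library. The number of members called moved by more than 1.5 times in 4 settings. For the genotype effect on CDAHFD in males it was 1 without the filter on low counts. For the sex difference on CDAHFD in WT mice it was 2 with a replicate block, where Cyp2c37 (0.997, adjusted p = 0.0782) and Cyp2c68 (0.37) were not called, and 2 to 4 with 1 library left out, the 2 being without CDAHFD-fed WT female replicate 1. For the diet by sex interaction in Cyp2b-null mice it was 4 without the filter and 4 with DESeq2. The shares of all genes called in these settings are not given here. With the block Cyp2c68 in CDAHFD-fed Cyp2b-null mice was also not called (0.72, adjusted p = 0.0625). The causes were not tested.

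Replicate numbers showed no sign of pairing (same-number correlations −0.110 to 0.177 in females and −0.185 to 0.292 in males), and 5 of 16 libraries in each sex were closest to a library of their own number. Depth limits Cyp2c39 and Cyp2c69 in males, where libraries had as few as 3 and 4 counts.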
